A study of Mus musculus with 12 samples.

Results

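The 7 genes described here come from the NanoString mouse immunology panel and act in MHC class II antigen presentation: H2-Aa, H2-Ab1, H2-Eb1, Cd74, H2-DMa, H2-Ob and Ciita. They were chosen by name for their place in the pathway, and these 7 are among 561 gene probes on the panel, which counts transcripts one molecule at a time by means of barcoded probes. Frozen skin of 12 female mice was measured, each library from a different mouse. All mice received the same number of OT2 cells, transgenic CD4 T cells whose receptor is specific for a peptide of ovalbumin. These cells had been skewed towards the T helper 2 state in a culture of 10 days, and skin was taken when disease appeared, at about 3 to 4 weeks.

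The 4 Merkel het CLE mice were rtTA+K5TGO+, so that they could express the autoantigen, and carried Atoh1flox/wt with K14Cre+. Of these, mice 1 and 2 were TLR9wt/wt and mice 3 and 4 TLR9ko/ko. Atoh1 is needed for Merkel cells, the touch receptor cells of the epidermis, and K14Cre acts in keratinocytes and the cells derived from them. Part of these cells is missing in this group, per the labels. The 4 CLE mice (a model of cutaneous lupus erythematosus) came from the parental strain, were rtTA+K5TGO+ and TLR9ko/ko, and kept their Merkel cells. The 4 littermates lacked rtTA, K5TGO or both and so could not express the autoantigen. Littermate 1 was TLR9ko/wt and littermates 2 to 4 were TLR9ko/ko. Their Merkel genotypes were Atoh1flox/flox K14Cre- in littermate 1 and Atoh1wt/wt K14Cre- in littermate 2. Littermate 3 was Atoh1flox/wt K14Cre+ and littermate 4 Atoh1flox/flox K14Cre+, and both are described as having fewer or no Merkel cells. Merkel het CLE mice 1 to 4 had skin disease scores of 3, 2, 2 and 2.5, CLE mice 1 to 4 scores of 2.5, 1, 1 and 3, and all littermates a score of 0. The series description gives every group as lacking TLR9, in contrast to these labels, which were followed here. What drives rtTA is not stated in the labels or the series description.

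MHC class II molecules carry peptides of ingested or endogenous proteins to the surface of a cell, where CD4 T cells read them. Each is a pair of an alpha and a beta chain, assembled on the invariant chain Cd74, which blocks the peptide groove until it is degraded in the endosome. There H2-DM exchanges the remaining invariant chain peptide for others, and H2-O restrains H2-DM. The coactivator Ciita does not bind DNA itself, but is recruited by factors on the X and Y boxes of class II promoters and sets how much class II is transcribed. In skin, Langerhans cells, dermal dendritic cells and macrophages express class II at rest, and interferon gamma can induce it in keratinocytes. OT2 T cells recognise their peptide on I-A, the H2-Aa and H2-Ab1 pair.

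Total gene counts ran from 99297 to 682046 per library, with the lowest in CLE 1 and littermate 2. The deposited values of these libraries had been multiplied by the largest factors, and their negative control probes stood at 62.6 and 50.04 units, against 9.66 to 27.5 units in the other 10. A library's background threshold is the mean of its 8 negative controls plus 2 SD, on the scale of the deposited values. Of the probes, 449 exceeded it in at least 4 libraries and were tested, all 7 class II genes among them. The skin label could be checked with few probes, since of 8 epithelial genes listed the panel holds Defb1 and Muc1. Defb1, a beta-defensin of epithelia, was above background in all 12 libraries and Muc1 in 10. In whole skin, fewer cells of a type and less RNA per cell cannot be told apart.

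No class II gene differed between the groups beyond the spread between mice. CLE 4 had the highest value of the 12 libraries for 6 of the 7 genes and Merkel het CLE 4 the lowest. For these 6 genes, on the log2 scale, the SD between mice of either diseased group was larger than any difference between group means. H2-Ob, the exception, lay at or near background. The values follow by role, in deposited units, each group's in the order of mice 1 to 4.

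H2-Aa, on chromosome 17, encodes the alpha chain of I-A. Its probe read 4699, 5728, 5863 and 1473 units in Merkel het CLE, 2308, 4004, 1993 and 14079 units in CLE, and 4715, 4007, 6016 and 2509 units in littermates. CLE 4 stood above all other libraries, while CLE 1 and 3 and Merkel het CLE 4 lay below all littermates, and the ranges of the 3 groups overlapped. H2-Aa averaged 4441 ± 2046 units in Merkel het CLE, 5596 ± 5724 units in CLE and 4312 ± 1462 units in littermates (SD, n = 4 each). H2-Ab1, on chromosome 17, encodes the beta chain that pairs with it. Its probe read 5163, 6563, 4323 and 2064 units in Merkel het CLE, 2891, 8028, 2323 and 14154 units in CLE, and 5592, 5091, 6075 and 3249.6 units in littermates. CLE 2 and CLE 4 were above every littermate, CLE 1 and 3 below every littermate, and the groups overlapped.

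H2-Eb1, on chromosome 17, encodes the beta chain of I-E, which in mice of the B6 background has no functional alpha chain to pair with. Its probe read 1977, 3402, 1247 and 930.15 units in Merkel het CLE, 1139.9, 3044, 1957 and 6297 units in CLE, and 2998, 2915, 3079 and 1799.7 units in littermates. Merkel het CLE 3 and 4 and CLE 1 were below every littermate, and Merkel het CLE 2 and CLE 4 above every littermate. Littermates 1 to 3 lay close together and littermate 4 apart from them.

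Cd74, on chromosome 18, encodes the invariant chain, and its product also acts as a receptor for the cytokine Mif. Its probe read 5629.9, 7186, 5443 and 1808 units in Merkel het CLE, 2808, 4542.5, 3087 and 14079.7 units in CLE, and 5809.6, 5131, 6440.3 and 3024.5 units in littermates. CLE 4 again stood far above the rest, the other 3 CLE mice lay below 3 of the 4 littermates, and the groups overlapped. Cd74 averaged 5017 ± 2277 units in Merkel het CLE, 6129 ± 5355 units in CLE and 5101 ± 1484 units in littermates (SD, n = 4 each).

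H2-DMa, on chromosome 17, encodes the alpha chain of H2-DM, the peptide exchange factor. Its probe read 376, 408, 308 and 150.0 units in Merkel het CLE, 289, 434.5, 225 and 835 units in CLE, and 455, 489, 437 and 229 units in littermates. Littermates 1 to 3 were above all 4 Merkel het CLE mice, but littermate 4 lay below 3 of them, so the groups overlapped. H2-Ob, on chromosome 17, encodes the beta chain of H2-O and is mostly expressed in B cells and thymic epithelium. Its probe read 22.9, 22.5, 17.2 and 18.3 units in Merkel het CLE, 83.4, 42.0, 34.9 and 22.0 units in CLE, and 34.6, 97.0, 31.4 and 20.6 units in littermates. H2-Ob was above background in 1 Merkel het CLE, 2 CLE and 2 littermate libraries, on 15 to 35 barcode counts per library. The highest values were those of CLE 1 and littermate 2, both below their own thresholds of 106 and 116 units, so no order was read from them.

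Ciita, on chromosome 16, encodes the coactivator. Its probe read 122, 138, 74.8 and 53.1 units in Merkel het CLE, 106, 111, 71.2 and 280 units in CLE, and 107, 125, 142 and 66.6 units in littermates. All were above background except in CLE 1. As with the chains it controls, CLE 4 was the highest and Merkel het CLE 4 the lowest library, and the groups overlapped.

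**Figure D1:**
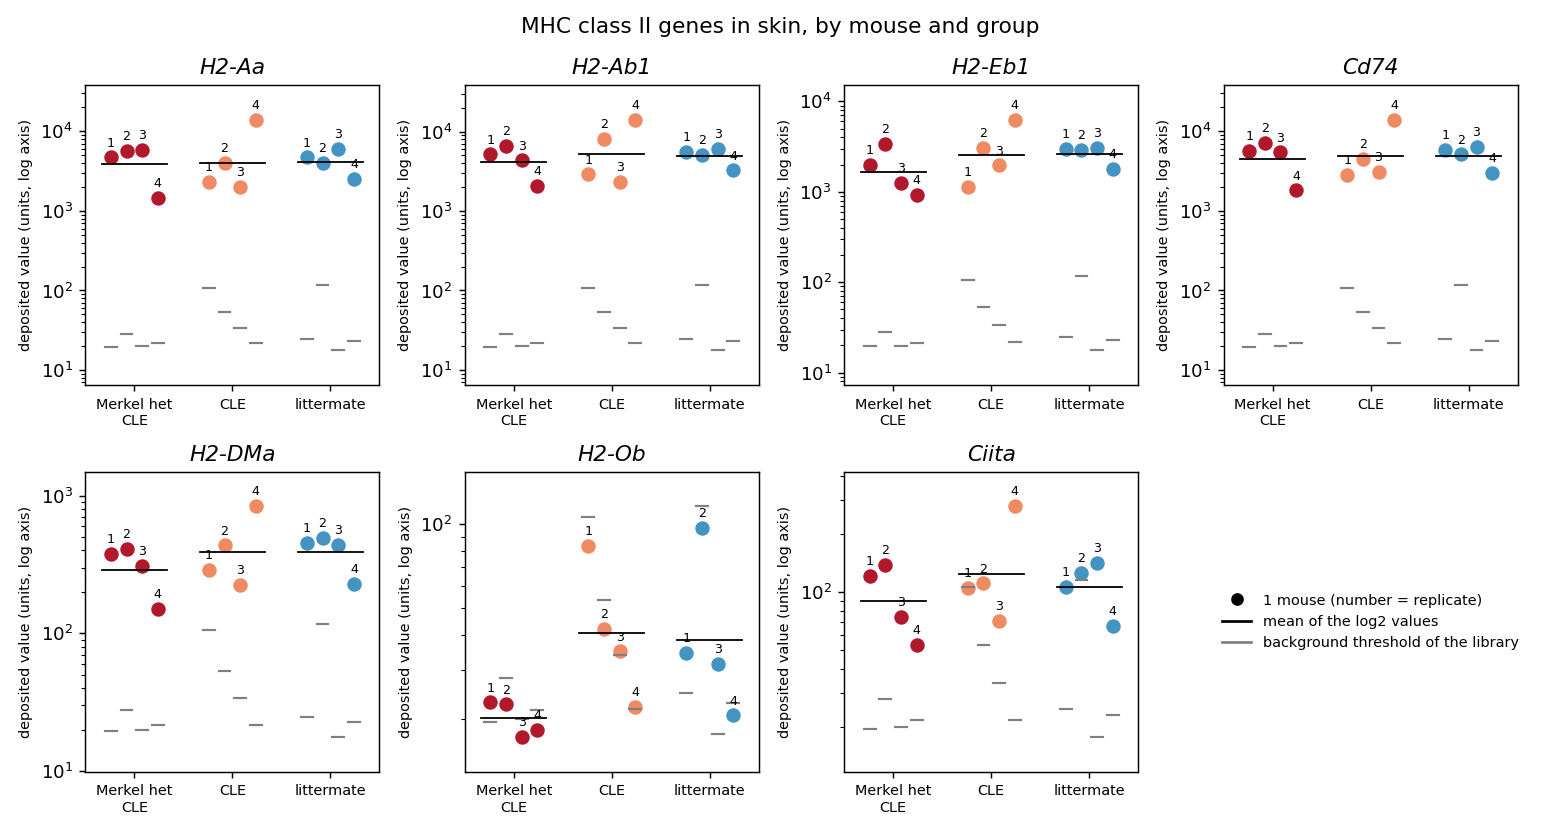
Deposited values (units, log axis) of the 7 class II genes in each mouse, with Merkel het CLE, CLE and littermates from left to right. Numbered points are mice, black lines the mean of the log2 values and grey ticks each library's background threshold. CLE 4 and Merkel het CLE 4 form the top and the bottom of every panel except H2-Ob, which lies at the thresholds.

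The first comparison set autoantigen-bearing skin of mice with a partial Merkel cell loss against littermate skin. Littermates 3 and 4 are also described as having fewer or no Merkel cells. With limma, 0 of the 7 genes passed an adjusted p of 0.05 for Merkel het CLE against littermates, where 11.6% of all tested genes passed. The groups did not overlap for 30.5% of all tested genes and for 0 of the 7. The log2 differences were all below 0, with a median of -0.23, against 0.01 over all tested genes. For the I-A chains they were -0.07 ± 0.61 for H2-Aa (adjusted p = 0.947) and -0.22 ± 0.54 for H2-Ab1 (adjusted p = 0.805), where ± is the standard error with 4 mice per group. H2-Eb1 had a difference of -0.66 ± 0.50 (adjusted p = 0.398), with a 95% interval from 0.30-fold to 1.35-fold. For Cd74 it was -0.14 ± 0.53 (adjusted p = 0.884), and the interval ran from 0.41-fold to 2.04-fold. H2-DMa differed by -0.41 ± 0.44 (adjusted p = 0.542) and Ciita by -0.23 ± 0.45 (adjusted p = 0.765). H2-Ob had the value farthest from 0, -0.91 ± 0.48 (adjusted p = 0.228), and without littermate 2 it was -0.47.

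Without Merkel het CLE 4, the differences from littermates were above 0 for H2-Aa (0.40), Cd74 (0.30), H2-Ab1 (0.11) and Ciita (0.03). They stayed below 0 for H2-DMa (-0.10), H2-Eb1 (-0.38) and H2-Ob (-0.86). Leaving out this mouse thus turned the sign of 4 of the 7 genes, and leaving out littermate 3 also turned that of H2-Aa (0.11). The Merkel het CLE mice and littermates numbered 23 in their titles, 2 of each, differed by 0.26 ± 0.23 for H2-Aa and 0.22 ± 0.24 for Cd74. Ciita (0.16) and H2-Ab1 (0.13) were also above 0 in these mice, and H2-Eb1 (-0.19), H2-DMa (-0.27) and H2-Ob (-1.32) below 0. Among these 4 mice the Merkel het CLE mice are TLR9wt/wt and the littermates are not. In the TLR9ko/ko libraries alone, all 7 differences were below 0, from -1.23 for H2-Eb1 to -0.42 for H2-Aa, and the smallest adjusted p was 0.347.

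In the comparison of CLE with littermates, the autoantigen and the parental strain differ. Merkel cells are kept in the CLE mice, but littermates 3 and 4 are described as having fewer or none. In addition, littermate 1 is TLR9ko/wt and all CLE mice are TLR9ko/ko. Again 0 of the 7 genes passed, as did 0% of all tested genes with limma, although 117 of the 449 had an unadjusted p under 0.05. The share of tested genes whose groups did not overlap was 11.1%, and it held none of the 7. The log2 differences ran from -0.04 for H2-Eb1 to 0.22 for Ciita, with a median of 0.02, against 0.36 over all tested genes. Their adjusted p-values lay between 0.766 and 0.983. The interval of H2-Aa reached from 0.39-fold to 2.44-fold and that of H2-DMa from 0.52-fold to 1.98-fold. Differences inside these limits were not excluded with these mice. Without CLE 4, the differences were -0.64 for H2-Aa, -0.53 for Cd74, -0.48 for H2-Eb1, -0.37 for H2-Ab1, -0.34 for H2-DMa and -0.17 for Ciita, while that of H2-Ob was 0.36.

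The comparison of Merkel het CLE with CLE asked whether partial loss of Merkel cells went with a difference in diseased skin, in mice that also differ in strain and, for mice 1 and 2, in TLR9. Here 0 of the 7 genes passed, and 0.223% of all tested genes did. The groups did not overlap for 8.02% of all tested genes and for none of the 7. All 7 log2 differences were below 0, from -0.04 ± 0.61 for H2-Aa to -0.98 ± 0.48 for H2-Ob, with a median of -0.43 against -0.26 over all tested genes. Adjusted p-values lay between 0.291 for H2-Ob and 0.9755 for H2-Aa. H2-Eb1 differed by -0.61 ± 0.50 and Ciita by -0.45 ± 0.45. Without CLE 4, H2-Aa, Cd74 and H2-Ab1 had differences of 0.56, 0.39 and 0.14, while Ciita (-0.06), H2-DMa (-0.07), H2-Eb1 (-0.18) and H2-Ob (-1.27) stayed below 0. These comparisons share the littermates or one of the diseased groups, so their values are not independent of each other.

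When both diseased groups were compared jointly with littermates, 0 of the 7 genes passed, against 10% of all tested genes, and the groups did not overlap for 6.68% of all tested genes and none of the 7. The log2 differences lay between -0.42 for H2-Ob and -0.003 for Ciita, with a median of -0.08 against 0.19 over all tested genes. H2-Eb1 differed by -0.35 ± 0.43 (adjusted p = 0.610).

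**Figure D2:**
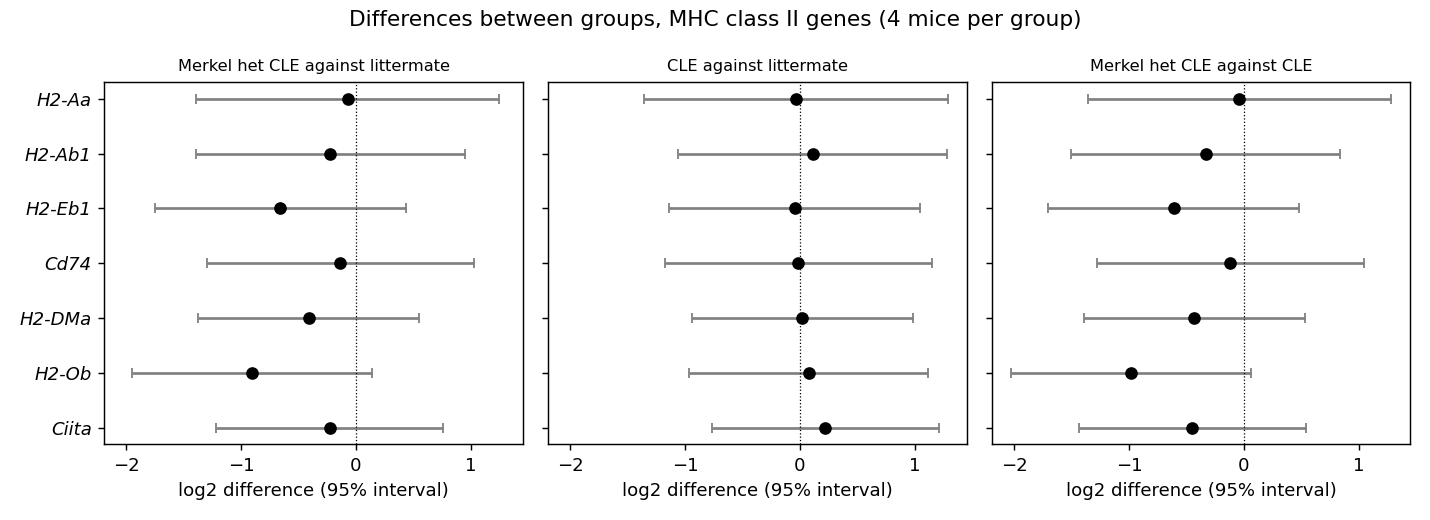
Log2 differences of the 7 class II genes (points) with 95% intervals (bars) from limma, for Merkel het CLE against littermates, CLE against littermates and Merkel het CLE against CLE, 4 mice per group. All intervals span 0, that of H2-Ob for Merkel het CLE against CLE only just, from -2.03 to 0.06.

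The spread between mice of a group was above the typical gene for all 6 of these genes, H2-Ob aside. Within Merkel het CLE the SD of their log2 values was 0.63 to 0.95, against a median of 0.52 over all tested genes. Within CLE it was 0.82 to 1.28 against 0.70, and within littermates 0.37 to 0.53 against 0.27. From lowest to highest mouse of the CLE group the values spanned 3.71-fold for H2-DMa, 3.93-fold for Ciita, 5.01-fold for Cd74 and 7.06-fold for H2-Aa. CLE 3 and CLE 4, which share a title number, lay at opposite ends: the mean of the 6 genes, each relative to its own mean over the 12 libraries, was -0.68 log2 units in CLE 3 and 1.51 in CLE 4. The K14Cre+ littermates 3 and 4, which also share a number, lay at 0.43 and -0.58.

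The 6 genes moved together from mouse to mouse. Over the 12 libraries the SD of their log2 values was 0.63 to 0.88, and after subtracting the mean of the other 5 genes it was 0.21 to 0.38. The closest pair was Cd74 and H2-Aa, whose log2 ratio had an SD of 0.19 over the libraries (Pearson r = 0.98, n = 12). Ciita and H2-DMa were nearly as close, with an SD of 0.22. All 6 genes share their lane factor, so part of any such relation is common to all genes of a lane. The ratios still set some mice apart. In Merkel het CLE 3, H2-Aa was 0.55 above its mean over the libraries and H2-Eb1 0.85 below its own. This placed their log2 ratio 1.39 above its mean. In CLE 3 the same ratio was 0.81 below its mean. In CLE 2, H2-Ab1 was 0.76 above its mean while H2-Aa was at its mean. In CLE 1, where Ciita was below background, the log2 ratio of Ciita to H2-Eb1 was 0.97 above its mean.

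The extremes held under other scalings for CLE 4 but not for Merkel het CLE 4. On the deposited scale, the mean of the 6 genes was 1.51 in CLE 4, next below it 0.46 in Merkel het CLE 2, and -1.25 in Merkel het CLE 4. With the libraries rescaled on the 12 named reference genes or on the 7 least variable reference probes, or with the negative controls subtracted, CLE 4 was highest and Merkel het CLE 4 lowest for all 6 genes. With each library centred on its median gene, CLE 4 was still highest for 6 genes, but Merkel het CLE 4 was lowest for 0 of 6 and CLE 1 had the lowest mean (-1.25, against -0.79 in Merkel het CLE 4). After quantile normalization, CLE 4 was highest for 5 of 6 genes and Merkel het CLE 4 lowest for 0. The total of all gene values was 307026 units in Merkel het CLE 4, the lowest of the 12 libraries, and its part in the low class II values was not tested.

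**Figure D3:**
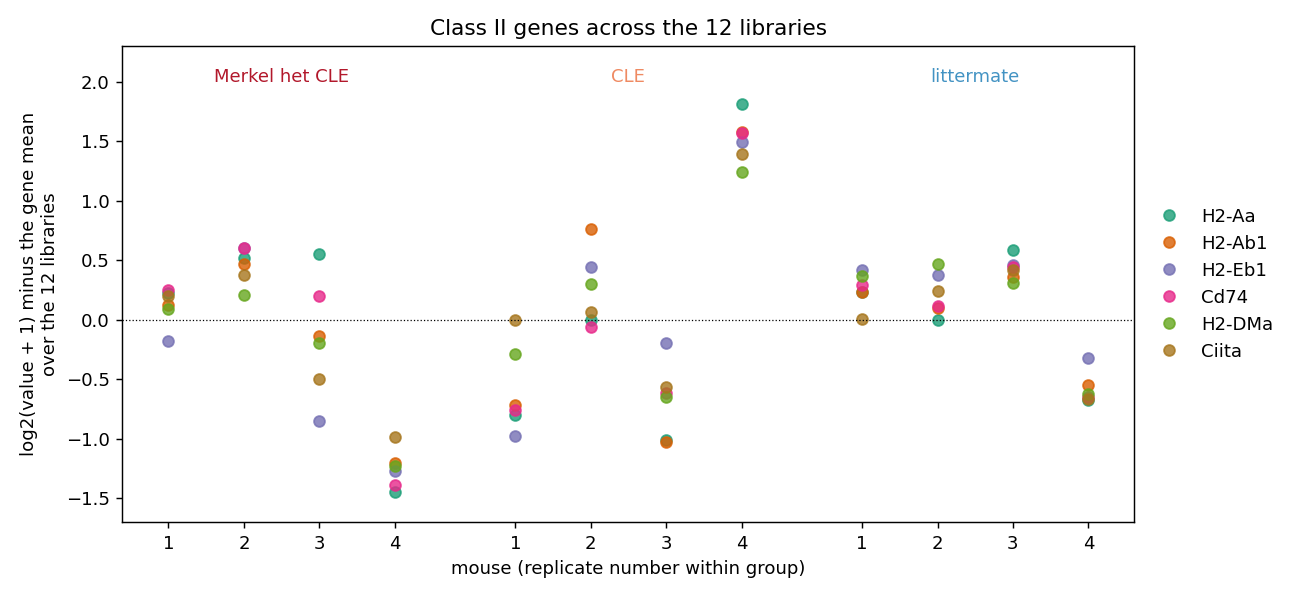
Log2(value + 1) of 6 class II genes minus each gene's mean over the 12 libraries, by mouse, with Merkel het CLE, CLE and littermates from left to right. Colours are genes. The points lie between 1.24 and 1.81 in CLE 4 and between -0.98 and -1.44 in Merkel het CLE 4. They spread most in Merkel het CLE 3, from 0.55 for H2-Aa to -0.85 for H2-Eb1. Next is CLE 1, from -0.003 for Ciita to -0.98 for H2-Eb1.

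Promoter sequences were compared because the values of 6 of the genes, H2-Ob aside, moved together. RefSeq promoters of build GRCm38.p6, 250 bases before to 50 bases after the start, were at hand for 4 of the 7 genes. Letters of the X1 box core (GCAAC) followed by the Y box core (ATTGG), 10 to 30 bases apart on the strand of the gene, were searched in the 250 bases before the start; the search was set after these promoters had been seen. The arrangement was found before H2-Aa, H2-Eb1 and H2-Ob, with gaps of 28, 27 and 25 bases, and in neither of the 2 H2-DMa promoters. Of all 32851 promoters in the table, 149 held it (0.454%), and of the 422 panel genes with a promoter entry, 4 did: these 3 and Tnfaip6. H2-Ob, which holds it, was left out of the 6 genes because it lay near background, so its movement could not be compared. Both H2-DMa entries, from chr17:34122582 and chr17:34125268 on the plus strand, lie inside the span of the gene. That span begins at chr17:34119693, and the bases before it were not searched. Cd74, Ciita and H2-Ab1 had no promoter entry. A link between the arrangement and the shared movement was not tested. Single cores are common, since 33.9% of promoters hold ATTGG and 29.9% GCAAC on either strand. The windows lie at chr17:34287824-34287983 on the minus strand for H2-Aa, chr17:34305707-34305866 on the plus strand for H2-Eb1 and chr17:34238745-34238904 on the plus strand for H2-Ob. Each covers the 160 bases before the start, 5′ to 3′ on the strand of the gene, with both cores in capitals, X1 first.
H2-Aa: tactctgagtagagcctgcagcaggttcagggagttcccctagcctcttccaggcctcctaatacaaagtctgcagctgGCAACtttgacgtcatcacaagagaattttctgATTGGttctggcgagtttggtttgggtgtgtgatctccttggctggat
H2-Eb1: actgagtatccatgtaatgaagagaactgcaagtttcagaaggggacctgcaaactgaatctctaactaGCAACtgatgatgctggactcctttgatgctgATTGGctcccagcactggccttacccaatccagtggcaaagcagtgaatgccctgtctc
H2-Ob: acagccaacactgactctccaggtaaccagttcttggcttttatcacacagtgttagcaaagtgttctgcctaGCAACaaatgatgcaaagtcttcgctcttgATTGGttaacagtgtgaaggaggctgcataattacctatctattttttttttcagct
The Y core lies 48 bases before the start in H2-Aa, 59 in H2-Eb1 and 57 in H2-Ob.

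Among the 8 diseased mice, class II values had no detectable relation to the skin disease score. With group as a term, 0 of the 7 slopes passed, as did 0% of all tested genes with limma, and 20 of the 449 had an unadjusted p under 0.05. The slopes ran from -0.02 for H2-Ob to 0.53 for Ciita in log2 units per unit of score, with a median of 0.37 against 0.14 over all tested genes, and adjusted p-values between 0.715 and 0.981. The mice with a score of 3 were Merkel het CLE 1, near the mean of the 6 genes at 0.12, and CLE 4 at 1.51. The mice with a score of 2.5 were both low, Merkel het CLE 4 at -1.25 and CLE 1 at -0.59. Without CLE 4, 6 of the 7 slopes changed sign, and that of H2-Aa was -0.33 ± 0.49 in place of 0.51 ± 0.49.

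**Figure D4:**
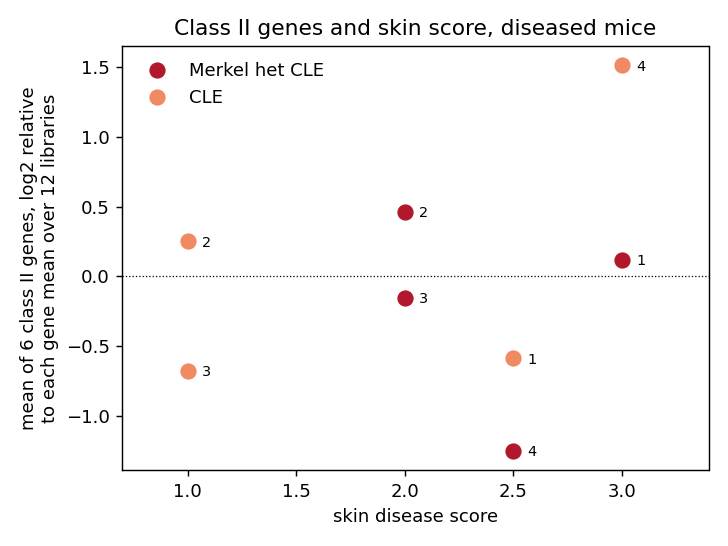
Mean of 6 class II genes (log2 relative to each gene's mean over the 12 libraries) against the skin disease score, in the 4 Merkel het CLE and 4 CLE mice. Numbers are replicates. The 2 mice with a score of 3 lie at 0.12 and 1.51, and both mice with a score of 2.5 at -0.59 or lower.

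The panel holds 2 further genes of class II processing. H2-DMb2, a beta chain of H2-DM, read 88.7, 101, 73.9 and 35.7 units in Merkel het CLE, 66.7, 86.4, 81.0 and 99.8 units in CLE, and 109, 154, 140 and 54.5 units in littermates. Littermates 1 to 3 were above every diseased mouse and littermate 4 was not, and the log2 difference was -0.60 ± 0.40 for Merkel het CLE against littermates (adjusted p = 0.332) and -0.36 ± 0.40 for CLE against littermates (adjusted p = 0.556). Ctss, the protease cathepsin S that cuts the invariant chain in dendritic cells and macrophages, read 1578, 555, 2740.0 and 391 units in Merkel het CLE, 1095, 770.2, 208 and 3053 units in CLE, and 211, 206, 414 and 214 units in littermates. It was highest in CLE 4, as the class II genes were, and Merkel het CLE 3 came next. Its differences from littermates were 1.98 ± 0.76 for Merkel het CLE (adjusted p = 0.102) and 1.78 ± 0.76 for CLE (adjusted p = 0.163), neither past the threshold.

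Of 8 genes on the panel that lead to Ciita induction, 7 were tested, and for Merkel het CLE against littermates 1 of them fell and none rose, near the 11.6% called over all tested genes. Ifng, the main inducer, was above background in none of the 12 libraries. Ifngr2, a chain of its receptor, read 409, 506, 350 and 301 units in Merkel het CLE, 361, 341, 612 and 469 units in CLE, and 858, 784, 604 and 657 units in littermates. All Merkel het CLE mice were below all littermates, and Ifngr2 fell by 0.90 log2 units (SE 0.25, adjusted p = 0.0433), a call lost without Merkel het CLE 1, 3 or 4 or any one littermate, where adjusted p over all alternatives reached 0.216. For both diseased groups together Ifngr2 fell by 0.82 (adjusted p = 0.0437), a call kept in 3 of the 12 fits that left out 1 library and in 12 of 18 other alternatives.

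Irf1, a transcription factor that relays interferon gamma to the Ciita promoter, did not follow class II in every mouse. Irf1 read 697, 852, 648 and 337 units in Merkel het CLE, 2469, 1950.3, 663 and 2946 units in CLE, and 968, 724, 887 and 579 units in littermates. It was highest in CLE 4, where class II was highest, and lowest in Merkel het CLE 4. In CLE 1, it was above every littermate, while H2-Aa, H2-Ab1, H2-Eb1 and Cd74 were below every littermate. The log2 difference from littermates was -0.37 ± 0.44 for Irf1 in Merkel het CLE (adjusted p = 0.580) and 1.18 ± 0.44 in CLE (adjusted p = 0.129).

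Of 5 inhibitors of Ciita induction on the panel, 4 were tested, and Il10 was above background in none of the libraries. None passed for Merkel het CLE against littermates, and 1 rose in both diseased groups together, where 10% of all tested genes passed. Socs3, an inhibitor of cytokine receptor signalling, read 554, 245, 272 and 291 units in Merkel het CLE, 801, 743, 212 and 139 units in CLE, and 105, 105, 79.0 and 114 units in littermates. Every diseased mouse was above every littermate, with a log2 difference of 1.77 ± 0.45 (adjusted p = 0.0437), a call kept in 4 of the 12 fits that left out 1 library.

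Class I genes, which present peptides to CD8 T cells and which share part of their promoter elements with class II, showed the same top and bottom libraries in part. All 8 genes listed under class I on the panel, proteasome subunits included, were tested and none passed in any comparison. Their summed values lay between 30617 and 64023 units in Merkel het CLE, 69007 and 124136 units in CLE, and 59369 and 77903 units in littermates. The lowest sum was that of Merkel het CLE 4, and that of CLE 4 was next to the highest, in CLE 2. Most of each sum came from B2m, with 89936 units in CLE 4 and 21888 units in Merkel het CLE 4. CLE 4 had rank 1 for H2-K1, Tapbp and Psmb10 and rank 2 for B2m, Tap1 and Psmb9. It had rank 9 for Psmb5 and 10 for Psmb7. Of 7 costimulatory genes of antigen-presenting cells, 1 rose for Merkel het CLE against littermates, again near the 11.6% over all tested genes: Icosl, the ligand of Icos on T cells. Icosl read 386, 318, 386 and 411 units in Merkel het CLE, 434, 358, 165 and 269 units in CLE, and 168, 174, 224 and 199.7 units in littermates. All Merkel het CLE mice were above all littermates, by 0.97 ± 0.29 log2 units (adjusted p = 0.0473), a call kept in 3 of the 12 fits that left out 1 library.

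Markers of the cells that carry class II moved with the class II genes in part. Of 6 dendritic cell genes on the panel, 4 were tested, and their list sum was 193 to 538 units in Merkel het CLE, 381 to 702 units in CLE and 528 to 693 units in littermates. It was lowest in Merkel het CLE 4, as class II was, and at the top CLE 4, with 702 units, was only just above the highest littermate, with 693 units. Xcr1, a marker of type 1 dendritic cells, was above background in 1 of 12 libraries and Ccr7, of migrating dendritic cells, in 3. Itgax, the integrin CD11c, read 122, 131, 67.0 and 60.4 units in Merkel het CLE, 278, 225, 54.5 and 254 units in CLE, and 77.0, 113, 74.9 and 64.2 units in littermates. It was high in CLE 1, where most class II genes were low. Irf4, a transcription factor of type 2 dendritic cells and of lymphocytes, read 46.5, 79.3, 46.4 and 43.9 units in Merkel het CLE, 111, 175, 92.2 and 104 units in CLE, and 208, 271, 231 and 174 units in littermates. Irf4 fell by 2.04 log2 units for Merkel het CLE against littermates (SE 0.30, adjusted p = 0.00437), and that call was kept in all 12 fits that left out 1 library and in 17 of 20 other alternatives. Of the 4 dendritic genes tested, Irf4 alone passed in that comparison, where 11.6% of all tested genes passed.

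Of 10 macrophage and monocyte genes on the panel, 9 were tested. None passed for Merkel het CLE or CLE against littermates, where 11.6% and 0% of all tested genes passed. All 9 differences were above 0 in both comparisons. Their median was 1.42 for Merkel het CLE and 1.60 for CLE, against 0.01 and 0.36 over all tested genes. In both diseased groups together, 1 of the 9 rose, near the 10% called over all tested genes. It was the Fc receptor gene Fcgr4 (2.46 ± 0.69, adjusted p = 0.0437, kept in 2 of the 12 fits that left out 1 library). The summed values were 2747 to 11732 units in Merkel het CLE, 2081 to 18755 units in CLE and 1836 to 3407.5 units in littermates. CLE 4 had rank 5 of 12 and CLE 1 the highest sum, so this sum did not have the order of the class II genes. Most of the CLE 1 sum came from Tyrobp (8313 units) and Cd14 (6533 units), and single genes differed. CLE 4 had rank 1 for Fcgr4 and rank 2 for Csf1r, Adgre1, Cd163 and Fcgr1. It had rank 4 for Msr1 and Itgam, 5 for Tyrobp, 6 for Marco and 7 for Cd14. Of 10 B cell genes, 5 were tested and none passed in any comparison. Cd79a, Pax5, Cr2 and Tnfrsf13c were above background in none of the libraries, and the sum ranged over 455 to 562 units in Merkel het CLE, 552 to 955 units in CLE and 715 to 1132 units in littermates. CLE 4 had rank 9 in that sum, and Blnk made up 328 of its 552 units. Among the 5 tested genes, CLE 4 had rank 1 for Ms4a1, 3 for Tnfrsf13b, 5 for Cd79b, 7 for Cd22 and 10 for Blnk.

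Of 6 T cell genes tested, 3 fell in Merkel het CLE against littermates, where 11.6% of all tested genes passed. In all, 4 of the 6 differences were below 0 and 2 above 0, up to 0.70. The genes that fell were Cd3e by 1.95 (SE 0.34, adjusted p = 0.0116), Cd247 by 1.43 (SE 0.32, adjusted p = 0.0247) and Cd3d by 1.25 (SE 0.37, adjusted p = 0.0473). Of the 12 fits that left out 1 library, these calls were kept in 11, 6 and 4, and all 3 were lost without littermate 3. The T cell sum was 266 to 340 units in Merkel het CLE, 408 to 917 units in CLE and 386 to 712 units in littermates. Cd4, the coreceptor that binds class II, did not pass, with a difference of 0.30 ± 0.43 for Merkel het CLE and 0.88 ± 0.43 for CLE against littermates (adjusted p = 0.668 and 0.212). All 4 neutrophil genes rose in Merkel het CLE against littermates, where 11.6% of all tested genes passed. Their calls were kept in 4 to 6 of the 12 fits that left out 1 library. Their sum was 9816 to 60974 units in Merkel het CLE, 1207 to 236155 units in CLE and 117 to 487 units in littermates. S100a8 and S100a9 made up most of it, with 139994 and 93820 units in CLE 1. CLE 4 had rank 8 in that sum. The part of these cell markers in the class II values was not tested.

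Over the 12 libraries, the log2 values of 5 genes followed the mean of all 7 class II genes, H2-Ob included, most closely. These were Cxcr6 (Pearson r = 0.90, Spearman rho = 0.78), Slamf7 (0.90 and 0.77), Spn (0.87 and 0.87), Irf8 (0.83 and 0.64) and H2-DMb2 (0.79 and 0.87). Cxcr6 is a chemokine receptor of tissue-homing T cells, Slamf7 a receptor of natural killer cells, plasma cells and macrophages, Spn the leukocyte sialoprotein CD43, and Irf8 a transcription factor of monocytes and type 1 dendritic cells. These coefficients describe 12 mice that share lane factors within a library. Without CLE 4 and Merkel het CLE 4, the 2 mice farthest from the median, r over 10 mice was 0.71 for Cxcr6, 0.75 for Slamf7, 0.67 for Spn, 0.43 for Irf8 and 0.85 for H2-DMb2, so the relation with Irf8 rested largely on these mice. None of the 5 passed in any comparison. Slamf7 read 83.0, 59.7, 50.7 and 23.8 units in Merkel het CLE, 55.6, 81.5, 27.9 and 287 units in CLE, and 51.4, 84.9, 49.6 and 29.0 units in littermates. As with class II, CLE 4 was highest and Merkel het CLE 4 lowest, but Slamf7 was chosen by its r over these same libraries.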

How the data were processed

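RNA of 12 skin samples, extracted with a Qiagen column kit per the labels' protocols, was measured on the NanoString panel. The deposited signal of a gene probe is a barcode count times a constant of its lane: in every lane, 100% of values were whole multiples of 1 step, to within 0.02 units. The geometric mean of 14 reference probes was 1432 units in every lane, so the deposited signal is scaled on these probes; 7 of them were least variable and served for an added rescaling. The deposited table holds 561 gene probes, of which 549 matched a symbol of the reference table and 12 did not, and 6 positive and 8 negative controls. The reference probes were not tested and 98 probes lay below the background rule.

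Groups and scores follow the labels; replicate numbers are in accession order and pair nothing. Whether mice that share a title number are related is not given. Differences were tested with limma 3.58.1 (R 4.3.3) on log2(value + 1), all 12 libraries in 1 fit of group means with a variance trend, Benjamini-Hochberg over 449 genes, threshold 0.05. The score slope was fitted in 8 diseased mice with group as a term. A pseudocount of 1 understates changes of low genes. The fitting code was tested on simulated data. The 7 genes and all lists were chosen with earlier results of these data known. Text names all 7 genes, the 5 most similar genes by Pearson r, and up to 3 list members by smallest p, plus defining markers chosen after their values were seen. Some genes of these lists are not reported here by name; the counts and sums of their lists include them. Barcode counts given here are gene values divided by the step of their lane, which was found from the gene probes. A separate check, which starts from the lowest value of a column with control rows included, did not accept whole counts for most columns, so a count model planned as an alternative was not run. Summaries were made with pandas 2.3.3 and numpy 2.4.6, and plots with matplotlib 3.10.9, under Python 3.11.15.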

Additional observations from a re-analysis of the deposited data

Results flagged for a closer look

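Among the 21 sets of 4 mice (7 genes in 3 groups), on the scale of deposited units, 3 had 1 mouse far from the others, by a gap to the nearest mouse, as a share of the group's range, above Dixon's critical value for 4 samples. Chance flags about 1 in 20 groups, and the genes move together, so the sets are not independent. For Cd74 in CLE the gap of CLE 4 (14079.7 units, the next mouse 4542.5 units) was 0.846 of the range. For H2-Aa in CLE the gap of CLE 4 (14079 units, the next mouse 4004 units) was 0.834. For H2-Eb1 in littermates the gap of littermate 4 (1799.7 units, the others 2915 to 3079 units) was 0.872. On log2(value + 1), a scale added after seeing the data, 3 sets were past the critical value, and only H2-Eb1 in littermates was past it on both scales (0.898). The others on log2 were H2-Aa in Merkel het CLE, where Merkel het CLE 4 was low (0.840), and H2-DMa in littermates, where littermate 4 was low (0.853), while CLE 4 had 0.702 for Cd74 and 0.643 for H2-Aa.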

How the results depend on the processing

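The count of class II genes past the threshold was 0 under every alternative that was run: 32 for Merkel het CLE against littermates, 31 for CLE against littermates, 30 each for Merkel het CLE against CLE and for both diseased groups, and 17 for the score slope. The smallest adjusted p of any of the 7 genes was 0.0517, 0.290, 0.160, 0.0727 and 0.546 in these comparisons. The calls over all 449 genes moved far more: 52 for Merkel het CLE against littermates became 0 in TLR9ko/ko libraries alone and 183 with array weights, and 0 for CLE against littermates became 107 with array weights and 137 without CLE 3. The rescaling on 7 reference probes and the scalings of the library pattern were chosen after seeing the data. Centring on the median gene moved the median of all genes from 0.36 to -0.12 for CLE against littermates.

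Of 390 single-gene differences under alternatives that kept all libraries of a group or left out a named set, 348 kept their sign and 42 did not. Alternatives that changed only the threshold, the filter or the variance trend cannot move a difference, and they are counted among those that kept their sign. None of the 390 values was past the threshold, and the cause of the sign changes was not tested. For Merkel het CLE against littermates, array weights gave Cd74 0.065 and H2-Aa 0.12, and title number 23 alone gave Cd74 0.22, Ciita 0.16, H2-Aa 0.26 and H2-Ab1 0.13. For CLE against littermates, Cd74, H2-Aa and H2-Eb1 were above 0 with TLR9ko/ko libraries alone (0.064, 0.032 and 0.017), with TLR9 genotype as a covariate (0.16, 0.11 and 0.16), with a random block for the title number (0.037, 0.0059 and 0.031) and without littermate 2 and CLE 1 (0.27, 0.22 and 0.39). Array weights gave H2-Eb1 0.021 there. Ciita, H2-Ab1, H2-DMa and H2-Ob were below 0 with median centring (-0.26, -0.37, -0.46 and -0.40) and quantile normalization (-0.38, -0.25, -0.33 and -0.58). H2-Ab1, H2-DMa and H2-Ob were below 0 without K14Cre+ littermates (-0.022, -0.27 and -0.50). H2-DMa and H2-Ob were below 0 with rescaling on 12 named reference genes (-0.066 and -0.0090) and with negative controls subtracted (-0.043 and -0.28), and H2-DMa with rescaling on 7 reference probes (-0.048). For Merkel het CLE against CLE, Cd74 and H2-Aa were above 0 with median centring (0.029 and 0.11), quantile normalization (0.25 and 0.26) and array weights (0.10 and 0.16), and H2-Aa with rescaling on 7 reference probes (0.047).

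Leaving out 1 library at a time, 36 of 252 differences changed sign. The 252 include fits that left out a library of the group not compared, which cannot move a difference. For Merkel het CLE against littermates the ranges were -0.37 to 0.30 for Cd74, -0.45 to 0.025 for Ciita, -0.31 to 0.40 for H2-Aa and -0.44 to 0.11 for H2-Ab1. For CLE against littermates they were -0.53 to 0.25 for Cd74, -0.17 to 0.48 for Ciita, -0.64 to 0.30 for H2-Aa, -0.37 to 0.50 for H2-Ab1, -0.34 to 0.29 for H2-DMa, -0.48 to 0.34 for H2-Eb1 and -0.26 to 0.51 for H2-Ob. For Merkel het CLE against CLE they were -0.38 to 0.39 for Cd74, -0.38 to 0.56 for H2-Aa and -0.73 to 0.14 for H2-Ab1. The labels number no replicates, but titles share numbers, 23 being that of 2 Merkel het CLE mice and 2 littermates. A fit with that number as a random block had a consensus correlation of 0.212 and changed no call of a class II gene. The planned count model was not run. Background limits H2-Ob in all groups and Ciita in CLE 1.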
